A study of Mus musculus with 10 samples.

Results

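Amino acid transporters of the solute carrier (SLC) superfamily were examined in lineage-negative (Lin-) mouse bone marrow cells, which are depleted of mature blood cells. The 10 genes are Slc7a1, Slc7a3, Slc7a5, Slc7a11, Slc3a2, Slc1a4, Slc1a5, Slc38a2, Slc6a9 and Slc43a1, of the 55359 genes in the deposited table. They were taken by symbol, as a list that had been chosen by the measured difference in FPKM (fragment counts scaled to gene length and to library depth) between these same libraries. Their differences between the groups are therefore given as a description, with no test. Tests are given for genes outside the list.

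RNA was sequenced from 5 Dhx9f/f mice (WT), which carry floxed Dhx9 alleles and no Cre, and 5 Dhx9f/f;MX1 mice (cKO), which carry the same alleles and Cre under the Mx1 promoter. That promoter answers interferon and is not limited to blood cells. By the general methods of the study, poly(I:C), an interferon-inducing RNA mimic, was injected into MX1-Cre mice on alternate days. Marrow was taken a week after the first injection. The labels do not say whether these WT mice were injected or how old the animals were. Each library is a separate sample by its label.

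Animal cells take up amino acids through membrane carriers with overlapping substrates. In one family, a light chain that carries the substrate is held at the cell surface by a glycoprotein heavy chain, CD98, encoded by Slc3a2. Starved cells translate the factor ATF4, which binds C/EBP-ATF response elements (CARE) and drives genes of amino acid synthesis and uptake. Red cell precursors need glycine for heme and leucine for globin, and carriers for both belong to the set.

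The targeted gene went against its label. Dhx9 stood between 65.43 and 72.42 FPKM in WT and between 130.82 and 156.49 FPKM in the libraries labelled cKO, which is higher under the label that names its deletion. FPKM per gene cannot tell a deleted exon from the rest of the transcript. Every direction below rests on these labels. Depth, estimated from genes with a single transcript, was about 13836936 fragments in library cKO 1, the shallowest, and 14930133 to 18710999 in the other 9.

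Marker genes of blood cell types also differed between the labels. A gene was called higher or lower at a limma adjusted p under 0.05 and a change of at least 2-fold. Of 13 erythroid markers matched, 7 were called higher. The summed level of all 13 was 1698 to 2926 FPKM in WT and 4699 to 7856 FPKM in the libraries labelled cKO. Among these, Hbb-bs, a beta-globin gene whose near copies can share its reads, was at 72.98 to 341.19 and 563.3 to 1234.26 FPKM. All 12 monocyte and dendritic cell markers were called lower, with sums of 1180 to 2019 and 49.3 to 406 FPKM. Of 10 neutrophil markers, 5 were called lower, as were 8 of 8 megakaryocyte, 7 of 10 stem and progenitor, 2 of 6 B lymphoid, 4 of 6 T and NK and 5 of 6 mast cell and basophil markers. Over all genes tested, 4.6% were called higher and 16.8% lower. A gene was tested if it averaged at least 0.1 FPKM. Of the markers called lower, Mecom, Procr and Igll1 passed that filter through the WT libraries alone, so no test is read from them. Their means were 0.276, 0.64 and 0.478 FPKM in WT and 0.082, 0.048 and 0.082 FPKM under the cKO label. The B lymphoid marker Ebf1 was under the filter and not tested. The neutrophil genes S100a8, S100a9, Ltf, Camp and Ngp were not called. Their means over 5 libraries were higher under the cKO label, and each was highest in library cKO 1. Yet the fitted log2 fold change was negative for S100a8 (-1.24, and -2.21 without cKO 1) and S100a9 (-0.2, and -1.16 without it). For Ltf, Camp and Ngp it stayed positive without cKO 1, at 0.67, 0.29 and 0.49. No marker on these lists was at 0 in every library of a group. In bulk RNA, fewer cells of a type and less RNA per cell cannot be told apart. The part of cell composition in the values below was not tested. Sex-linked transcripts differed too. Xist was at 99.19 to 127.76 FPKM in WT 3, 4 and 5, and at most 0.09 FPKM in the other libraries. Fitted on those other libraries alone, with 2 WT and 5 cKO, the log2 differences of the 10 members ran from -0.53 for Slc38a2 to 4.18 for Slc7a3. Each kept its sign. In 8 of the 10, all libraries labelled cKO were above all WT libraries, so no subset of libraries could reverse it. Nothing about sex is therefore read from the signs.

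Sequence upstream of the genes was read from RefSeq promoter windows of mouse GRCm38.p6, which run from 250 bases before to 50 bases after a start. Windows were found for 7 of the 10 genes (10 windows in all), with no entry for Slc7a3, Slc7a5 and Slc1a5. The core of the CARE, TGATGNAA on either strand, was present in 3.97% of 32851 mouse windows. Among the members it was present in the windows of Slc7a11 and Slc1a4. The Slc7a11 window held it in 2 places, as did 0.07% of all windows (at least 2 matches). Both sequences are shown because these were the only member windows with this core, and not for the size of any difference. Matches of the other motifs are given below without their sequences. Whether any motif bears on the differences between the groups was not tested. Each match is in capitals, and the gene's own strand is read 5′ to 3′.

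Slc7a11, chr3:50443623-50443709, minus strand: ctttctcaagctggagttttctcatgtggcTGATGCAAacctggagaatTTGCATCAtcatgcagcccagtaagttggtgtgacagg

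Slc1a4, chr11:20332699-20332728, minus strand: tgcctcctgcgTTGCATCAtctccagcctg

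In Slc7a11 the first match lies 66 to 59 bases before the start and reads as the core is written. The second lies 47 to 40 bases before it and reads as the reverse complement, 11 bases from the first. The Slc1a4 match, also the reverse complement, spans the start itself, from base -4 to base 4. An E-box, CACGTG, stood in 1 member window (Slc43a1), against 7.15% of all windows. The core of the antioxidant response element, TGACNNNGC, stood in 5 windows of 4 members (Slc43a1, Slc6a9, Slc7a1 and Slc38a2), against 12.4% of all. The GATA sequence AGATAA was in none of the 10 windows and in 11.2% of all. These matches describe letters and not binding.

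**Figure D1:**
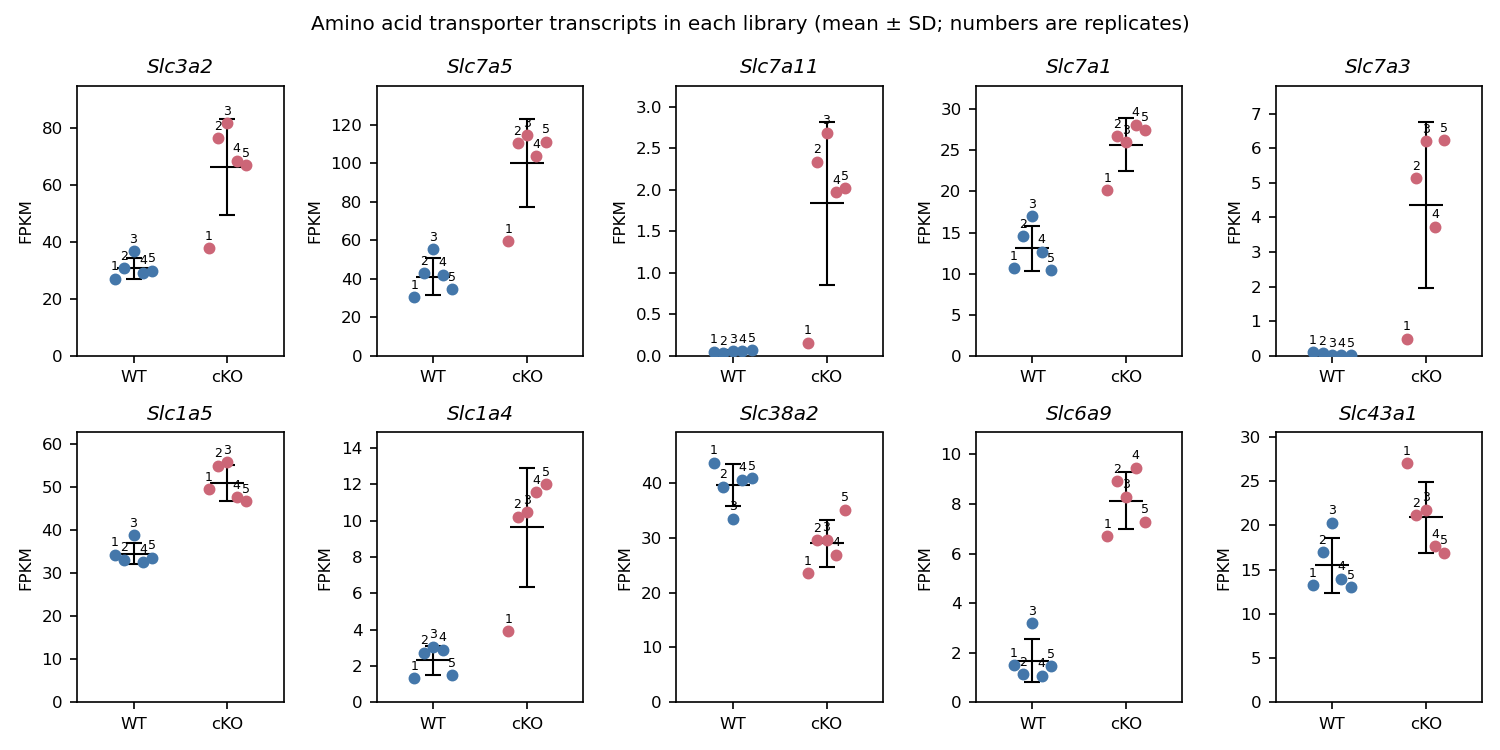
FPKM of each transporter (vertical axes, linear, from 0) in the 5 WT and the 5 cKO-labelled libraries, with points numbered by replicate and bars for mean ± SD. In 8 genes every library labelled cKO lies above every WT library, and library cKO 1 is the lowest of its label in 8 genes.

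Of the 10 transporters, 6 passed these limits, set over 18742 genes, on the higher side, where 4.6% of all genes tested did. None passed on the lower side, where 16.8% of all genes did. In 8 of the 10, all 5 libraries labelled cKO were above all 5 WT libraries, against 10.6% of all genes. In none were they all below, against 21.6%. The median log2 fold change over the 10 genes was 1.17, and over all genes tested -0.11. These counts follow from how the list was made and nothing is read from them. All 10 passed the filter of a mean of 0.1 FPKM, Slc7a3 and Slc7a11 through the libraries labelled cKO alone.

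The heavy chain and its main partner, LAT1, were both higher in the libraries labelled cKO. Slc3a2 (ENSMUSG00000010095, minus strand of chromosome 19, 8684245 to 8701108, in GRCm39 like all gene positions here) gave 27.18, 30.79, 36.95, 29.23 and 29.97 FPKM in WT 1 to WT 5. In libraries 1 to 5 labelled cKO it was at 37.98, 76.65, 81.89, 68.7 and 67.19 FPKM. The groups did not overlap, yet cKO 1 stood 1.23 times above the WT mean while the other 4 were at 73.6 ± 6.91 FPKM (SD, n = 4). The log2 fold change was 1.07 (standard error 0.185), and 1.26 without cKO 1. Leaving out cKO 3 brought it to 0.98, under the 2-fold limit. Snhg1, a small nucleolar RNA host gene, overlaps Slc3a2 on the other strand, at means of 42.1 FPKM in WT and 61.9 FPKM under the cKO label. Whether fragments were counted by strand is not given in the sources used here, so reads of this pair may be mixed.

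Slc7a5 (ENSMUSG00000040010, chromosome 8 from 122607884 to 122634433, minus strand) encodes LAT1, which exchanges intracellular glutamine for leucine and other large neutral amino acids. It had the highest mean of the 10 genes in both groups. It was at 30.52, 43.02, 55.52, 42.19 and 34.55 FPKM in WT and at 59.63, 110.3, 114.5, 103.73 and 111.06 FPKM under the cKO label. Library cKO 1 lay just above the highest WT library, WT 3, and the other 4 lay between 103.73 and 114.5 FPKM. The means were 41.2 ± 9.59 and 99.8 ± 22.8 FPKM (SD, n = 5 each), and the log2 fold change was 1.27 (standard error 0.203).

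Slc7a11 (ENSMUSG00000027737, chromosome 3 from 49846975 to 50398070, minus strand) encodes xCT, the light chain that imports cystine in exchange for glutamate and so feeds glutathione synthesis. In WT it was barely detected, at 0.05, 0.03, 0.06, 0.06 and 0.07 FPKM, about 8 to 17 fragments a library by its annotated length. Under the cKO label it was at 0.16, 2.34, 2.69, 1.97 and 2.02 FPKM. The WT libraries were alike, and cKO 1 was closer to them than to the other 4, which averaged 2.25 ± 0.333 FPKM (SD, n = 4). With all libraries the log2 fold change was 3.30 (standard error 0.583), and without cKO 1 it was 3.93. It is on the log2(FPKM + 0.1) scale, which understates change at such low levels.

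Of the other light chains that pair with CD98, none passed the test. Slc7a6 was at 8.62 ± 1.52 FPKM in WT and 5.97 ± 1.86 under the cKO label (SD, n = 5 each; adjusted p = 0.0553, limma), Slc7a7 at 4.35 ± 0.731 and 3.89 ± 1.25, and Slc7a8 at 7.55 ± 1.75 and 6.14 ± 1.79. Slc7a10 was listed at 0 in every library. FPKM is scaled to gene length, so levels of the subunits can be set side by side. The light chains summed to 1.91 to 2.17 times the heavy chain in WT (mean 2.0 ± 0.105) and 1.65 to 1.97 times under the cKO label (1.78 ± 0.130; SD, n = 5 each). Those ranges overlap. Slc7a5 made up 58.6% to 77.5% of the light-chain sum in WT and 82.9% to 87.2% under the cKO label, cKO 1 included at 85.0%. Slc7a11 made up at most 0.119% in WT and at most 1.95% under the cKO label. Slc7a5 and Slc7a11 were chosen by their difference and the other light chains were not, so larger shares follow in part from that choice.

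**Figure D2:**
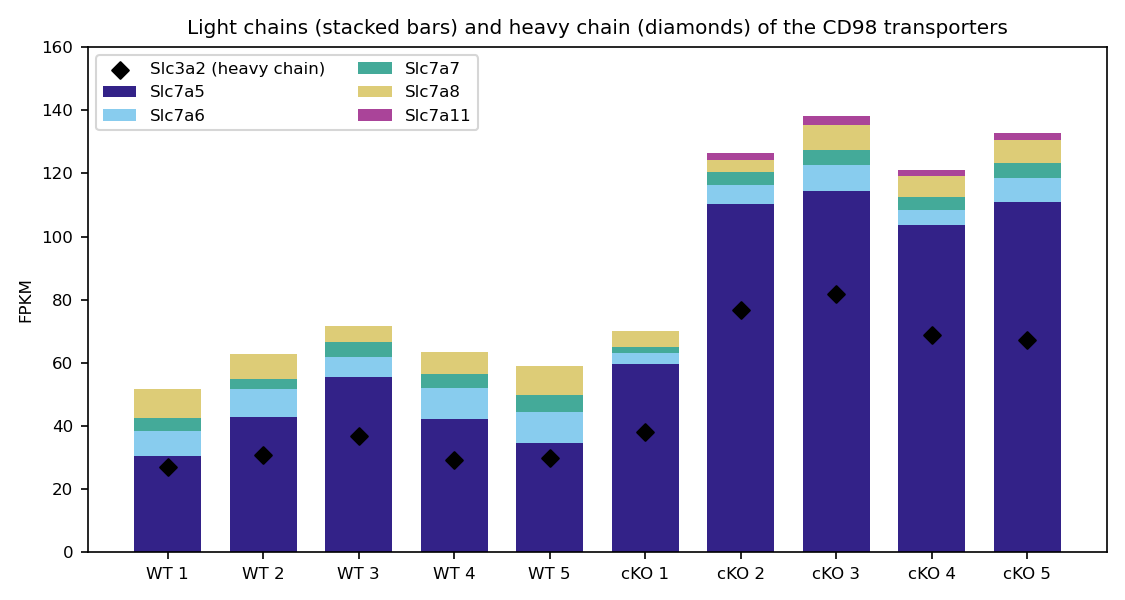
FPKM of the CD98 light chains (stacked bars) and of the heavy chain Slc3a2 (diamonds) in each library, with a linear axis from 0. Light chains sum to 51.8 to 71.6 FPKM in WT, 70.2 in cKO 1 and 121 to 138 in cKO 2 to 5, and most of the difference is the Slc7a5 segment. Slc7a5 is among the genes chosen by their difference, so this follows in part from that choice.

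Carriers of arginine, lysine and ornithine were represented by Slc7a1 and Slc7a3, which encode CAT1, found in most cells, and CAT3, known chiefly from brain. Slc7a1 (ENSMUSG00000041313, chromosome 5 from 148264220 to 148336848, minus strand) was at 10.66, 14.55, 17.03, 12.68 and 10.4 FPKM in WT and at 20.12, 26.7, 25.99, 28.13 and 27.52 FPKM under the cKO label. All libraries labelled cKO were above the WT range, cKO 1 by the least. Its log2 fold change was 0.99 (standard error 0.145), just under the 2-fold limit, and 1.07 without cKO 1, just over it.

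Slc7a3 (ENSMUSG00000031297, chromosome X from 100122745 to 100129631, minus strand) had the largest fold difference of the 10. It was at 0.1, 0.08, 0.03, 0.03 and 0.02 FPKM in WT, about 20 fragments over all 5 libraries, and at 0.5, 5.13, 6.21, 3.73 and 6.24 FPKM under the cKO label. Library cKO 1 was 9.62 times above the WT mean, and the other 4 averaged 5.33 ± 1.18 FPKM (SD, n = 4). The log2 fold change was 4.53 (standard error 0.592), and 5.16 (0.253) without cKO 1. It went from 2.16 with a pseudocount of 1 to 5.92 with one of 0.01, so its size is set largely by that choice. Slc7a3 made up 0.400% ± 0.312 of the FPKM of Slc7a1, Slc7a2 and Slc7a3 together in WT and 13.6% ± 6.89 under the cKO label (SD, n = 5 each). Its share was 2.41% in cKO 1 and 11.7% to 19.2% in the other 4. Slc7a3 was chosen by its difference, so a larger share follows in part from that choice. Slc7a2, which encodes CAT2 and is not among the 10 genes, was at 0.518 ± 0.183 and 0.092 ± 0.0698 FPKM (SD, n = 5 each). It passed the filter through the WT libraries alone, so no test is read from it.

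Sodium-dependent carriers of small neutral amino acids differed in size and in direction. Slc1a4 (ENSMUSG00000020142, chromosome 11 from 20252180 to 20282774, minus strand) encodes ASCT1, an exchanger of serine, alanine, cysteine and threonine. It was at 1.33, 2.73, 3.06, 2.9 and 1.51 FPKM in WT and at 3.92, 10.21, 10.46, 11.57 and 12.02 FPKM under the cKO label. Library cKO 1 lay just above WT 3, the highest WT library, and cKO 2 to 5 were at 11.1 ± 0.869 FPKM (SD, n = 4). This gave a log2 fold change of 1.99 (standard error 0.339). Slc1a5 (ENSMUSG00000001918, chromosome 7 from 16515265 to 16532731, plus strand) encodes ASCT2, which takes up glutamine. It was at 34.34, 33.14, 38.89, 32.72 and 33.65 FPKM in WT and at 49.49, 54.97, 55.81, 47.75 and 46.8 FPKM under the cKO label. Here cKO 1 lay in the middle of its group, and the means of 34.5 ± 2.50 and 51.0 ± 4.16 FPKM (SD, n = 5 each) were 1.48 times apart.

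Slc38a2 (ENSMUSG00000022462, chromosome 15 from 96585266 to 96597894, minus strand) encodes SNAT2, a carrier of alanine, glutamine and other neutral amino acids that is known as a target of the amino acid response. Alone of the 10, it had a lower mean under the cKO label. It was at 43.66, 39.3, 33.44, 40.54 and 40.77 FPKM in WT and at 23.57, 29.5, 29.6, 26.89 and 35.11 FPKM under the cKO label. Library cKO 5 was above WT 3, so the groups overlapped. Its log2 fold change was -0.46 (standard error 0.107), short of the 2-fold limit.

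Carriers tied to red cell formation differed in size. Slc6a9 (ENSMUSG00000028542, chromosome 4 from 117691703 to 117732395, plus strand) encodes GlyT1, the glycine transporter that serves heme synthesis in erythroid cells. It was at 1.49, 1.14, 3.2, 1.08 and 1.47 FPKM in WT and at 6.69, 8.93, 8.3, 9.46 and 7.29 FPKM under the cKO label. WT 3, the WT library with the most erythroid RNA (2926 FPKM over the 13 markers), was the high one among WT, and no library labelled cKO came near the WT range. The log2 fold change was 2.31 (standard error 0.256), and 2.38 without cKO 1. Slc43a1 (ENSMUSG00000027075, chromosome 2 from 84669194 to 84698315, plus strand) encodes LAT3, a carrier of leucine and other branched-chain and aromatic amino acids that works without CD98. It was at 13.27, 16.94, 20.3, 13.98 and 12.99 FPKM in WT and at 26.98, 21.15, 21.75, 17.63 and 16.9 FPKM under the cKO label. The groups overlapped, and cKO 1 was the highest of all 10 libraries. Its log2 fold change was 0.43 (standard error 0.155).

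**Figure D3:**
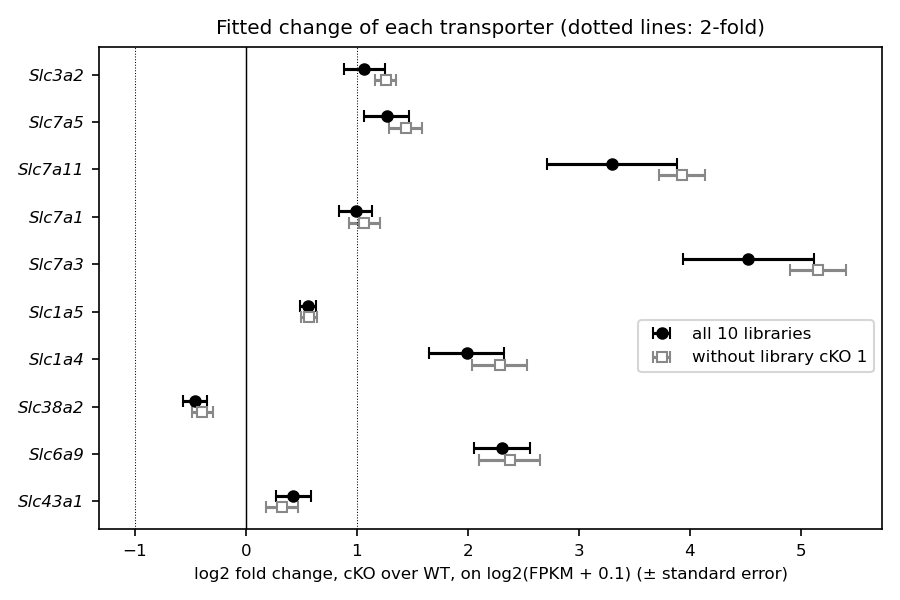
Fitted log2 fold change of cKO-labelled over WT libraries on log2(FPKM + 0.1), with standard error, for all 10 libraries (circles) and without library cKO 1 (squares), and dotted lines at 2-fold. Values run from -0.46 for Slc38a2 to 4.53 for Slc7a3, and leaving out cKO 1 moved Slc7a3 and Slc7a11 most, to 5.16 and 3.93.

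In WT, the order of mean levels was Slc7a5, Slc38a2, Slc1a5 and Slc3a2 between 41.2 and 30.8 FPKM, then Slc43a1 (15.5) and Slc7a1 (13.1), then Slc1a4 (2.31) and Slc6a9 (1.68), and last Slc7a11 and Slc7a3 at 0.054 and 0.052. Neighbours within each of these 4 sets had overlapping ranges over the 5 libraries, and neighbouring sets did not. Under the cKO label, Slc7a5 (99.8), Slc3a2 (66.5) and Slc1a5 (51.0 FPKM) came first with overlapping neighbours. Slc38a2 stood after them at 28.9 FPKM, with Slc7a1 (25.7) and Slc43a1 (20.9) next to it and overlapping neighbours again. Slc1a4 (9.64), Slc6a9 (8.13), Slc7a3 (4.36) and Slc7a11 (1.84) were lowest in both groups. Summed over the 10 genes, the level was 163 to 208 FPKM in WT, 229 in cKO 1 and 320 to 357 in the other libraries labelled cKO.

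Variation among libraries of one label was not used in choosing the genes. Library cKO 1 had the lowest value of its label in 8 of the 10 genes and the highest in 1, Slc43a1. Among WT libraries, WT 3 was highest in 7 genes and lowest in 1, Slc38a2. After the mean of each label was subtracted from log2(FPKM + 0.1), the median Pearson r over the 45 pairs of genes was 0.47 in 10 libraries and 0.22 without cKO 1. These correlations are descriptions over 10 libraries, which differed in depth and in marker levels. Slc7a3 and Slc7a11 had an r of 0.94 that became -0.10 without cKO 1, so their likeness rested on that library. Slc7a5 and its heavy chain Slc3a2 had an r of 0.91, and 0.79 without cKO 1. Slc7a5 kept an r of 0.91 with Slc7a1 and went from 0.95 to 0.87 with Slc1a4. Slc38a2 and Slc43a1 ran opposite to each other, with an r of -0.79, and -0.69 without cKO 1.

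**Figure D4:**
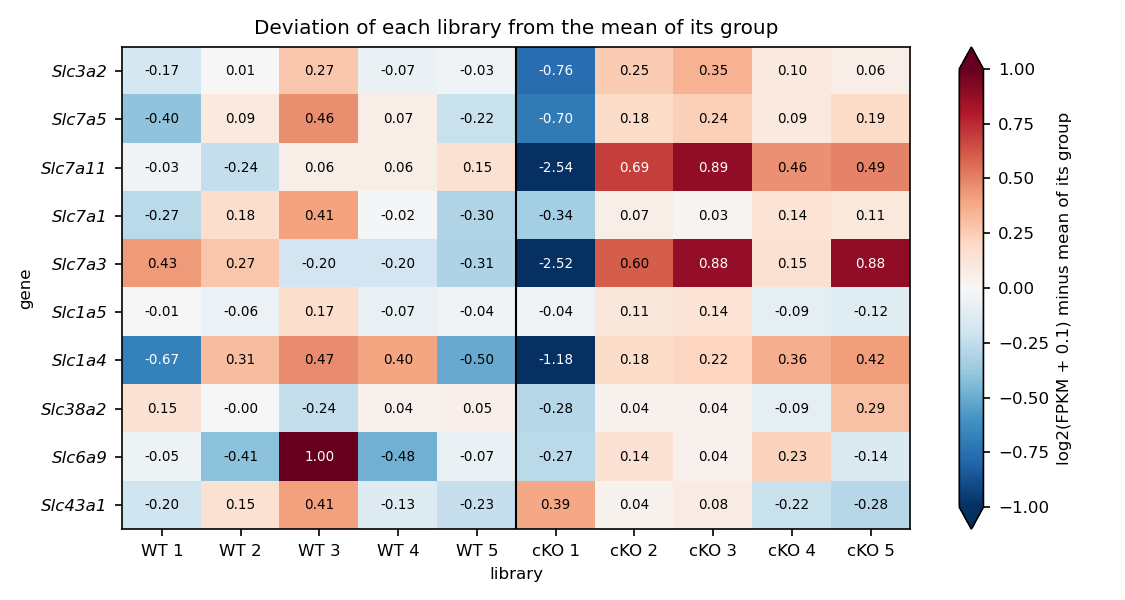
Deviation of each library from the mean of its own label in log2(FPKM + 0.1), for each transporter (rows) and library (columns), with the colour scale ending at 1 in either direction. Library cKO 1 stands at -2.54 for Slc7a11 and -2.52 for Slc7a3 but at 0.39 for Slc43a1, and WT 3 stands at 1.0 for Slc6a9.

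The erythroid marker level, taken as the mean log2 over 13 genes, was 5.83 to 6.92 in WT, highest in WT 3, and 7.34 to 7.90 under the cKO label, highest in cKO 1. Within labels, its r with the members over 10 libraries was highest for Slc6a9 (0.78), Slc43a1 (0.67) and Slc1a5 (0.58) and lowest for Slc38a2 (-0.74). It was 0.39 for Slc7a1, 0.14 for Slc7a5, 0.02 for Slc3a2 and 0.0 for Slc1a4. For Slc7a11 it was -0.23 and for Slc7a3 -0.30. Without cKO 1, which was high in erythroid markers, the values were 0.63 for Slc7a1, 0.52 for Slc7a5, 0.58 for Slc3a2 and 0.30 for Slc1a4. They were then 0.03 for Slc7a11 and -0.24 for Slc7a3. Over genes averaging 1 FPKM or more, the deviations most like those of Slc7a1 were those of Klf1, an erythroid transcription factor (r = 0.99, and 0.99 without cKO 1). For Slc7a3 they were those of Nadk (0.99, and 0.92 without cKO 1), for Slc7a5 those of Eif2b5 (0.99 and 0.97), and for Slc6a9 those of Cox7c (0.94 and 0.94). Exosc10 was closest to Slc3a2 (0.98 and 0.94), Gm6501 to Slc1a4 (0.99 and 0.97), Rab3a to Slc1a5 (0.97 and 0.98), Anxa5 to Slc38a2 (0.97 and 0.96) and Hagh to Slc43a1 (0.97 and 0.96). Slc7a11 was nearest to Gm43340 (0.99 and 0.69), which was listed at 0 in every WT library, so that value rests on the libraries labelled cKO. Second nearest were Asb17 for Slc7a1, Zscan30 for Slc7a3, Dcun1d5 for Slc7a5, Snx5 for Slc3a2 and Mlf2 for Slc1a4. For Slc1a5, Slc38a2, Slc6a9 and Slc43a1 they were Zbtb25, Synj2bp, 1700086P04Rik and Polr3f. For Slc7a11 it was Nupr1, with an r of 0.98 that became 0.47 without cKO 1. These genes were picked as the nearest of all genes at that level, and no test was made of them.

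Other carriers of amino acids at the plasma membrane were listed by family, without the 10 members. The members had been chosen by their difference, and 9 of them had a positive log2 fold change. The counts and the median of this list therefore depend in part on their removal. Of 39, 21 were under the filter, 10 of them at 0 in every library, and 18 were tested. Of these 18, 1 was called higher and 4 lower by limma, where 4.6% and 16.8% of all genes were, and their median log2 fold change was -0.29 against -0.11. With genes averaging 1 FPKM or more alone, the counts were 0 and 2. The gene called higher was Slc6a15, a carrier of branched-chain amino acids and proline, at 0.066 ± 0.0134 and 0.702 ± 0.302 FPKM (SD, n = 5 each). It passed the filter through the libraries labelled cKO alone and was named after its values were seen. Slc43a2, the LAT4 relative of Slc43a1, fell from 5.11 ± 0.885 to 0.982 ± 0.364 FPKM (SD, n = 5 each; log2 fold change -2.31, adjusted p = 7.15e-05). Slc36a4, a carrier of proline and tryptophan, fell from 3.81 ± 0.547 to 1.65 ± 0.269 FPKM (SD, n = 5 each; adjusted p = 1.92e-04). Slc7a2 and Slc36a2 were the other two called lower, and both passed the filter through the WT libraries alone. Slc36a2, named after its values were seen, was at 0.442 ± 0.307 and 0.048 ± 0.0576 FPKM.

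The most abundant of these carriers in WT stayed under the 2-fold limit. Slc38a5, a carrier of glutamine, glycine and serine, was at 32.6 ± 6.61 FPKM in WT and 54.7 ± 6.64 under the cKO label (SD, n = 5 each), with no overlap. Its log2 fold change was 0.76 (adjusted p = 0.00104, limma), so it passed on p but not on size. Slc38a10 was at 24.7 ± 1.53 and 18.2 ± 1.39 FPKM (adjusted p = 6.38e-04, log2 fold change -0.44), and the aromatic amino acid carrier Slc16a10 at 18.6 ± 1.76 and 16.6 ± 2.37 FPKM (adjusted p = 0.205).

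Amino acid carriers of the lysosome include exporters of breakdown products to the cytosol, such as Slc36a1 and Ctns. Of 7 listed, 6 were tested, each with a negative log2 fold change (median -0.58, against -0.11 for all genes tested). Of the 6, 1 was called lower, where 16.8% of all genes were. This was Slc36a1, which exports small neutral amino acids from lysosomes, at 15.1 ± 3.38 and 3.84 ± 1.74 FPKM (SD, n = 5 each; log2 fold change -2.04, adjusted p = 3.50e-04, limma). Ctns, the cystine exporter, was at 7.79 ± 1.26 and 4.39 ± 1.30 FPKM (adjusted p = 0.00313), and Mfsd12 at 13.1 ± 0.804 and 7.94 ± 0.736 FPKM (adjusted p = 1.16e-04). Both passed on p and not on size. The log2 fold change of Ctns was -0.84, and -1.0 without cKO 1, where Ctns was highest of its label. Monocyte markers, whose cells are rich in lysosomes, were 12 of 12 called lower in the same libraries, and their part in these values was not tested.

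None of 12 mitochondrial carriers of amino acids passed both limits in either direction. On adjusted p alone (limma), 4 were higher and 2 lower, where 16.7% and 28.3% of all genes were. On unadjusted p under 0.05, 5 were higher and 2 lower, where 20% and 32.3% of all genes were. Slc25a38, which brings glycine into mitochondria for heme, was at 25.1 ± 4.95 FPKM in WT and 33.8 ± 4.82 under the cKO label (SD, n = 5 each; log2 fold change 0.44, adjusted p = 0.0231). Sfxn1, the serine carrier, was at 19.4 ± 1.99 and 26.1 ± 2.39 FPKM (adjusted p = 0.00289), and Slc25a44, a carrier of branched-chain amino acids, at 17.7 ± 1.45 and 23.2 ± 2.01 FPKM (adjusted p = 0.00243). For comparison, Slc6a9, the glycine carrier of the cell surface, differed by 2.31 on the same scale. Slc25a18, a glutamate carrier named after its values were seen, was at 0.196 ± 0.177 and 0.532 ± 0.206 FPKM (SD, n = 5 each; log2 fold change 1.25, adjusted p = 0.0521, limma), just outside the limit.

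Genes that report amino acids to mTORC1, the kinase complex that matches growth to nutrients, went in both directions. Of 19 matched and tested, 3 were called higher and 2 lower, where 4.6% and 16.8% of all genes were, and their median log2 fold change was 0.21 against -0.11. With genes averaging 1 FPKM or more alone, the counts were 2 and 1. Castor1, an arginine sensor, rose from 0.502 ± 0.135 to 3.88 ± 1.5 FPKM (SD, n = 5 each; log2 fold change 2.64, adjusted p = 1.5e-04, limma), and its paralog Castor2, named after its values were seen, fell by 2.07 on the log2 scale (adjusted p = 0.00107). Castor1 was at 1.56 FPKM in cKO 1 and at 3.36 to 5.4 in the other libraries with that label. Sesn2, a leucine sensor that ATF4 and p53 can induce, rose from 5.09 ± 0.784 to 14.9 ± 6.58 FPKM (SD, n = 5 each; log2 fold change 1.36, adjusted p = 0.0120). In cKO 1 it was at 4.20 FPKM, below every WT library, and in the other 4 at 14.55 to 21.75 FPKM. Without cKO 1 its log2 fold change was 1.76. Its relative Sesn3 fell from 1.69 ± 0.453 to 0.390 ± 0.151 FPKM (SD, n = 5 each; adjusted p = 3.15e-04). The GTPase gene Rragd, which was also named after its values were seen, was at 0.096 ± 0.0555 and 0.422 ± 0.144 FPKM. It was the other gene called higher, and it too passed the filter through the libraries labelled cKO alone. The most abundant genes of the list, Sar1b (log2 fold change 0.41), Rraga (0.27) and Rragc (0.25), were not called.

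**Figure D5:**
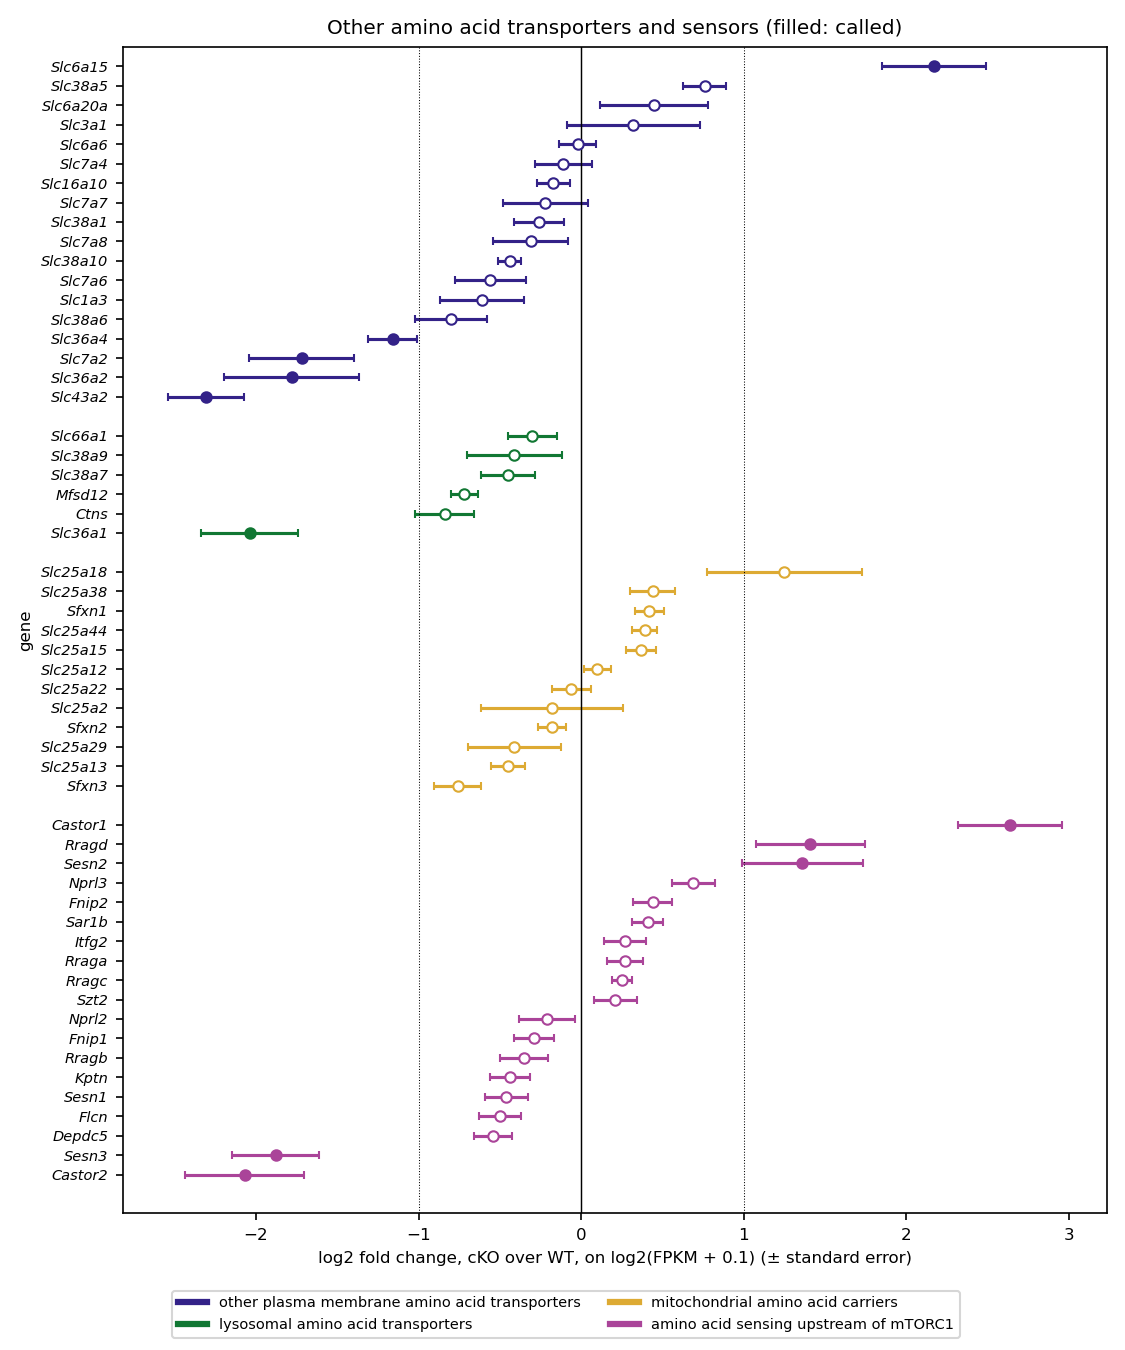
Fitted log2 fold change with standard error for the tested genes of the 4 other lists, in colour by list, with filled points for genes called and dotted lines at 2-fold. Castor1 (2.64) and Slc6a15 (2.17) are highest, and Slc43a2 (-2.31), Castor2 (-2.07) and Slc36a1 (-2.04) are lowest.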

How the data were processed

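Paired-end reads were trimmed by the authors and aligned to GRCm39, and the deposited values are FPKM for each gene in each library, given to 2 decimals. The submitters' processing notes name cutadapt 1.9.1, HISAT2 2.0.1 and HTSeq 0.6.1. The annotation and gene lengths behind the FPKM are not given in the sources used here. All 10 columns matched a label by name. Symbols and coordinates are from GENCODE M39 (GRCm39). Listed symbols without a match (Bmt2, Ahsp and Vpreb1) were left out.

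FPKM are not counts, so the authors' DESeq2 test was replaced by limma 3.58.1 (R 4.3.3, eBayes with a trend, two-sided) on log2(FPKM + 0.1), for 18742 genes averaging 0.1 FPKM or more. A call needed a Benjamini-Hochberg adjusted p under 0.05 and a change of at least 2-fold. The members, lists and tests were chosen with earlier results of these data known. Named genes were the members, Dhx9, and from each other list the 3 highest in WT and up to 5 of those called that averaged 1 FPKM or more. The steps were tested on simulated data.

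Depth was the value at which low FPKM of single-transcript genes became whole fragments (95.9% to 96.3% within 0.2 of a whole number, where 40% would by chance). Fragment numbers of members are approximate, since they have several transcripts. Each p-value sets the difference between the labels against the spread among libraries of one label. Those of the main fit do not allow for sex. Same-numbered libraries deviated together with r of -0.08 to 0.19 and were not taken as pairs. For WT 1, 2 and 5 the closest library labelled cKO was the one of the same number, and for WT 3 and 4 it was not. Alternatives were other pseudocounts, filters and scalings, no trend, a replicate block, adjusted p alone, Xist as a covariate or limit, and each library left out.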

Additional observations from a re-analysis of the deposited data

Results flagged for a closer look

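Groups of 5 libraries were screened with Dixon's test for 1 library standing away from its group, for the members, the named genes of the other lists, the light to heavy chain ratio and the Slc7a3 share. Of 58 groups, 8 had one, where chance gives about 1 in 20, or 2.90. Genes that move together are not separate events.

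Library cKO 1 was the low one in 4 members. It had 20.1 FPKM of Slc7a1, where cKO 2 to 5 had 26.0 to 28.1. Slc7a5 was at 59.6 FPKM against 104 to 114, Slc7a11 at 0.16 against 1.97 to 2.69 and Slc1a4 at 3.92 against 10.21 to 12.02. Its depth, about 13836936 fragments, was the lowest of the 10. Its summed neutrophil markers, 2598 FPKM, were above the 147 to 1119 FPKM of the other 4. In the same library Ctns was the high one, at 6.65 FPKM against 3.35 to 4.13.

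Library WT 3 was the high one for Slc1a5, at 38.9 FPKM against 32.7 to 34.3, and for Slc6a9, at 3.20 FPKM against 1.08 to 1.49. Library WT 2 had 14.6 FPKM of Mfsd12, beside 12.6 to 12.9 elsewhere in WT. The cause was not tested for any of these.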

How the results depend on the processing

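Under 22 other settings, 219 fitted values for the 10 members kept their sign. For the 8 members whose groups did not overlap, leaving out libraries could not have reversed it. Of the 219 values, 206 stayed on the same side of the call limits, 11 passed them only there and 2 no longer did. Slc7a1, at the 2-fold limit, stayed on its side in 14 of 22. Slc3a2 was not called with quantile normalization (1.0 on the log2 scale) or without cKO 3. Quantile normalization shifted all genes, from a median of -0.11 to 0.10 on the log2 scale, and the share of calls on the higher side from 21.5% to 41.3%. With each library left out, members called higher numbered 5 to 7, and mitochondrial carriers called higher 0 to 1 (1 without WT 1, WT 3 or cKO 3). With the replicate block, 6 members were called higher and no member call changed, and all 10 list counts stayed within 1.5 times. On adjusted p alone, 28.3% of all genes tested were lower and 16.7% higher. Lower were 1 of 10 members (Slc38a2), 6 of 18 other plasma membrane carriers, 4 of 6 lysosomal, 2 of 12 mitochondrial and 6 of 19 sensing genes. Higher were 2 of 18 other plasma membrane carriers, 0 of 6 lysosomal, 4 of 12 mitochondrial and 7 of 19 sensing genes. The other 9 members were also higher, which follows from how the list was made. With a pseudocount of 1, other plasma membrane carriers had 0 higher and 1 lower, and sensing genes 0 lower. With a mean of at least 1 FPKM, the counts were 0 higher and 2 lower, and 1 lower. With Xist as a covariate, or only libraries with Xist at or below 1 FPKM, 2 lysosomal genes were called lower, and in the latter 1 sensing gene higher. Median-ratio scaling and quantile normalization each called 1 mitochondrial carrier, Slc25a18, higher. The median r between members was 0.22 without cKO 1. The light to heavy chain ratio was 1.96 to 2.03 in WT and 1.74 to 1.82 under the cKO label with each library left out, and the Slc7a3 share 0.277% to 0.457% and 12.2% to 16.4%. The low depth of Slc7a3 and Slc7a11 in WT limits the size of their folds.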
